A study of Mus musculus with 11 samples.

Results

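The 10 CC chemokine genes described here were followed across 11 RNA-seq libraries of neonatal mouse skin, out of 49315 genes in the count table, and were chosen by symbol: Ccl2, Ccl7, Ccl8, Ccl12, Ccl3, Ccl4, Ccl5, Ccl17, Ccl22 and Ccl27a. All libraries were whole-skin biopsies of Foxp3-DTR mice on a C57BL/6J background, in which the diphtheria toxin receptor and GFP are placed under the Foxp3 locus, so that diphtheria toxin (DT) ablates Foxp3+ regulatory T cells (Tregs). In the study's pigmentation experiments the PBS controls were also Foxp3-DTR mice, and the controls here are taken to carry this allele too. Control skin (label PBS, n = 2) came from mice given PBS in place of DT. ΔETreg skin (label EarlyDT, n = 3) came from mice given DT on P6 and P8 and taken on P9, where P is the postnatal day. ΔLTreg skin (label LateDT, n = 3) came from mice given DT on P10 and P12 and taken on P13. ΔTreg skin (label FullDT, n = 3) came from mice given DT on all 4 of these days and taken on P13. The study describes age-matched controls for P9 and for P13, but the injection and harvest days of each of the 2 control libraries are not given in the sources used here. Age and treatment therefore cannot be told apart in any comparison with control, nor between ΔETreg and the later groups. ΔTreg and ΔLTreg shared their age. No sex is given for single libraries. All library titles share the same prefix, and whether the libraries form a single batch was not tested.

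CC chemokines are small secreted proteins with a pair of adjacent cysteines near their mature N terminus, and they draw leukocytes along gradients by binding G protein-coupled receptors named CCR. In skin, CCL2, CCL7 and CCL12 are known for recruiting monocytes, mainly through CCR2, while mouse CCL8 acts through CCR8. CCL3, CCL4 and CCL5 attract T cells, NK cells and macrophages, CCL17 and CCL22 bind CCR4 on T helper and regulatory T cells, and CCL27 is a product of keratinocytes that binds CCR10.

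The 10 genes lie on 3 chromosomes of the mouse genome (GRCm38, GENCODE M21). The genes of the Ccl2 cluster sit together on the plus strand of chromosome 11, Ccl2 at 82035571 to 82037453, Ccl7 at 82045712 to 82047525, Ccl12 at 82101845 to 82103400 and Ccl8 at 82115185 to 82116799. Ccl5, Ccl3 and Ccl4 follow farther along the same chromosome, with Ccl5 at 83525778 to 83530518 and Ccl3 at 83647844 to 83649355 on the minus strand and Ccl4 at 83662584 to 83664683 on the plus strand. Both CCR4 ligands are on the plus strand of chromosome 8, Ccl22 at 94745590 to 94751699 and Ccl17 at 94810453 to 94812036. Ccl27a lies alone on the minus strand of chromosome 4, at 41769467 to 41774247. In the annotated transcript used for each gene, the cysteine pair that names the family is coded in exon 2 of 3. The coding stretches around that pair are shown because this is the feature all 10 genes share and because they show which genes could exchange reads. Capitals mark the 6 bases of the cysteine pair, and the last line is Ccl27b, a copy of Ccl27a that is not one of the 10.
Ccl2: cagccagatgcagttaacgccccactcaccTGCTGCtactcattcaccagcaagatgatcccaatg
Ccl7: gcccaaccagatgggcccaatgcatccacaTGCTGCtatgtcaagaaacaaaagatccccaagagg
Ccl8: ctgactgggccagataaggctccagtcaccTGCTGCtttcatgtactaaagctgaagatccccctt
Ccl12: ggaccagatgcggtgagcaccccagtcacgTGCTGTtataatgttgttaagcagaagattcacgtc
Ccl3: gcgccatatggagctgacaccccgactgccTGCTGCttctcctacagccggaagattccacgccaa
Ccl4: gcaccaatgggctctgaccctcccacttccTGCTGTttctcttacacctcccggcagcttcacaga
Ccl5: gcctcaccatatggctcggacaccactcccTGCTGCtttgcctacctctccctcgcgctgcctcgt
Ccl17: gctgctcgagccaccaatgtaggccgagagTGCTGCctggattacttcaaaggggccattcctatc
Ccl22: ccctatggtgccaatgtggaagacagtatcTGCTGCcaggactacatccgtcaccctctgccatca
Ccl27a: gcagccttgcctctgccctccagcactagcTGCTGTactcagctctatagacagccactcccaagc
Ccl27b: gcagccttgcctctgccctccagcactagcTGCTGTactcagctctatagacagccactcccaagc
Ccl27a and Ccl27b carried the same letters in this window and were 99.2% identical over their 360 coding bases (global alignment, identical bases over alignment columns). The closest pairs among the 10 were far more distant, with 66.7% for Ccl3 and Ccl4, 64.4% for Ccl8 and Ccl12 and 63.2% for Ccl7 and Ccl12. Of all 150-base windows of the annotated transcripts, none of any of the other 9 genes occurred whole in a transcript of another gene, whereas 16.5% of the Ccl27a windows did. Since only uniquely placed reads were counted, some Ccl27a reads may have been dropped, and its level is uncertain to that extent. Gm13306, also 99.2% identical to Ccl27a over the coding bases, and further genes shared such windows as well. Ccl27b itself held 2 to 15 reads per library, against 479 to 1430 for Ccl27a. Its own reads may have been dropped in the same way, so this count does not bound the loss. Ccl27a also shared 8 exon bases, 0.337% of its exon length, with Il11ra1 on the opposite strand.

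The libraries held 23377571 to 34159435 counted reads. Levels are given as CPM, a gene's reads scaled to a fixed library total after trimmed mean of M-values (TMM) correction, and comparisons as log2 fold changes with their standard error (SE) from edgeR's quasi-likelihood test, with p-values adjusted by Benjamini-Hochberg over the 18375 genes tested and a threshold of 0.05. Foxp3, the gene whose cells were targeted, was low throughout, with 0.700 and 0.558 CPM in the controls, against 0.348, 0.526 and 0.471 after early, 0.685, 0.510 and 0.407 after late and 0.386, 0.564 and 0.556 after full depletion. All ΔETreg libraries lay below both controls, at a log2 difference of -0.49 ± 0.323 that did not pass the test (adjusted p = 1, edgeR), while ΔLTreg and ΔTreg overlapped with control. The ΔTreg difference was -0.30 ± 0.314 (adjusted p = 0.546, edgeR), so depletion is taken from the labels and not from these counts. Keratinocyte markers, which define epidermis, summed to 14700 to 17600 CPM in all libraries. In whole skin, fewer cells of a type and less RNA per cell cannot be told apart.

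In ΔTreg skin, 9 of the 10 CC chemokines rose against control, with log2 fold changes from 0.93 for Ccl27a to 5.55 for Ccl4, of which control held 1 read. Across all genes tested, 12.1% were called higher and 9.39% lower in this comparison. For all 10, every ΔTreg library lay above both controls, which held for 26.8% of all genes. The median over the 10 was 4.02, against -0.01 over all genes. Ccl3, Ccl4 and Ccl17 passed the expression filter only through their ΔTreg libraries, which favours finding a rise in that group. Without them, all 7 remaining genes rose, with a median of 3.93. Neither shorter depletion gave any call against control, and in the comparison of equal age, ΔTreg against ΔLTreg, 9 of the 10 rose, where 10.7% of all genes did. Against ΔETreg all 10 rose, where 13.2% of all genes did, though the call for Ccl3 was lost in 6 of 17 other settings.

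**Figure D1:**
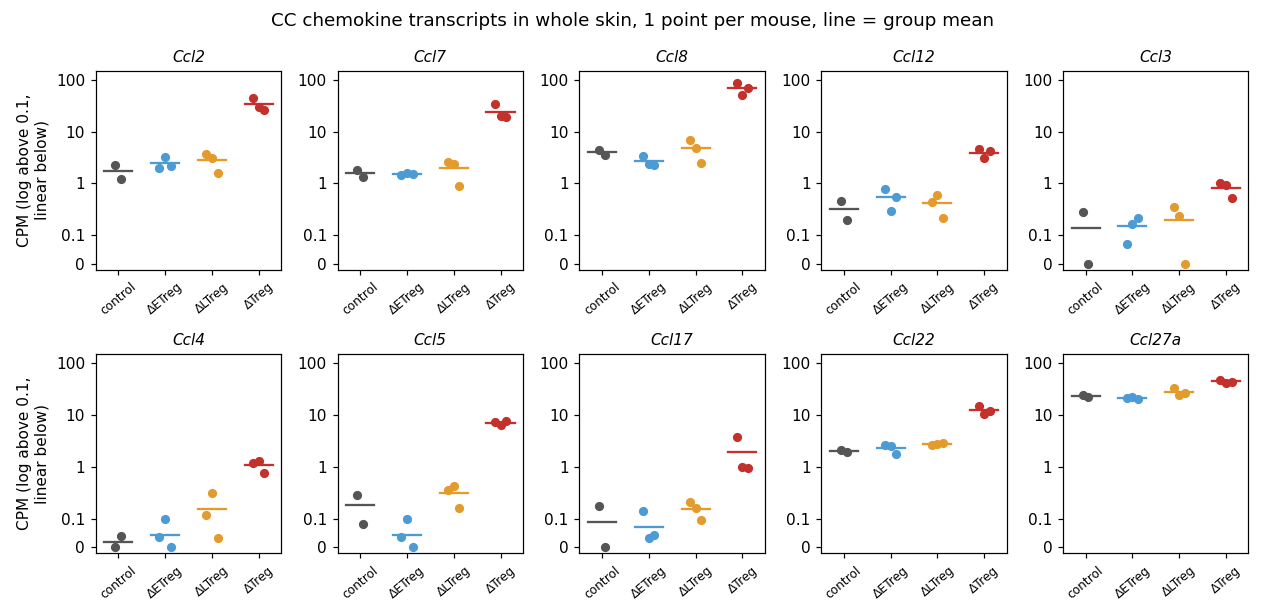
CPM of each CC chemokine (vertical axis, log scale above 0.1 CPM and linear below) in each library, 1 point per mouse and a line at the group mean, for control (n = 2), ΔETreg, ΔLTreg and ΔTreg (n = 3 each). The ΔTreg points lie above all others in every panel, by the smallest ratio for Ccl27a, where they run from 42.0 to 47.3 CPM against 33.2 CPM for the highest other library.

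The 4 genes of the Ccl2 cluster rose together in ΔTreg skin. Ccl2, the best known ligand of CCR2, had 2.24 and 1.20 CPM in the controls, against 2.02, 3.19 and 2.14 after early, 3.64, 3.14 and 1.60 after late and 45.5, 29.8 and 26.7 after full depletion. The other 3 groups overlapped, and ΔTreg stood clear of them. The rise over control was 4.28 ± 0.397 on the log2 scale (19.5-fold, adjusted p = 3.57e-05) and that over ΔLTreg 3.60 ± 0.313 (adjusted p = 2.61e-05).

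Ccl7, a CCR2 ligand that also acts on CCR1 and CCR3, had 1.79 and 1.35 CPM in the controls, against 1.46, 1.61 and 1.5 after early, 2.62, 2.35 and 0.908 after late and 33.6, 20 and 19.0 after full depletion. Its order of libraries within ΔTreg was that of Ccl2, with replicate 1 highest. It was higher than in control by 3.93 ± 0.398 (15.2-fold, adjusted p = 6.57e-05).

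Ccl8, a ligand of CCR8 in the mouse, had the highest level per kilobase of exon of the 10 in ΔTreg skin. It had 4.34 and 3.59 CPM in the controls, against 3.41, 2.33 and 2.27 after early, 7.03, 4.90 and 2.54 after late and 85.7, 51.6 and 69.7 after full depletion. Only this member had every ΔETreg library below both controls, at a log2 difference of -0.57 ± 0.397 that did not pass the test (adjusted p = 1). The rise in ΔTreg was 4.11 ± 0.371 over control (17.3-fold, adjusted p = 2.93e-05) and 4.68 ± 0.327 over ΔETreg (adjusted p = 3.48e-06).

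Ccl12, a mouse CCR2 ligand with no direct human counterpart, ranked 6th of the 10 per kilobase in ΔTreg skin. It had 0.455 and 0.199 CPM in the controls, against 0.766, 0.296 and 0.557 after early, 0.447, 0.588 and 0.219 after late and 4.55, 3.15 and 4.17 after full depletion. All ΔTreg libraries lay above the rest, with a rise of 3.54 ± 0.436 over control (11.7-fold, adjusted p = 0.000234).

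These 2 neighbouring genes, Ccl8 and Ccl12, both rose in ΔTreg skin, and their upstream sequences could be set side by side. The RefSeq promoter table for GRCm38.p6 held 6 of the 10 genes, namely Ccl3, Ccl8, Ccl12, Ccl17, Ccl22 and Ccl27a. The 250 bases before the start of Ccl8 (chr11:82114935-82115184, plus strand) and of Ccl12 (chr11:82101595-82101844, plus strand) are shown 5′ to 3′, with TATAAA in capitals.
Ccl8: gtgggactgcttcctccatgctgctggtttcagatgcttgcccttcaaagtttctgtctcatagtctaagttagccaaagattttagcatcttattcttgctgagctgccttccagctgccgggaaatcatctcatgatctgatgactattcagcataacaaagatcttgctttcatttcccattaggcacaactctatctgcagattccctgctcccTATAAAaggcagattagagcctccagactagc
Ccl12: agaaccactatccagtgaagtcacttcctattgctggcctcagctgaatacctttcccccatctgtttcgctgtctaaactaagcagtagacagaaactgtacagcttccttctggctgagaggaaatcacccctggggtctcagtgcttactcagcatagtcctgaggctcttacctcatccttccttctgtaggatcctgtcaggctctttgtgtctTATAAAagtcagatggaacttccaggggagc
The letters TATAAA stood 32 bases before the start of Ccl8 and 31 before that of Ccl12, and in none of the promoters of the other 4 genes. They occur in 12.4% of the 32851 promoters of the table over the same 250 bases. The NF-κB-like letters GGNNTTTCC, held by 4.93% of all promoters, were in none of the 6. The letters TTCNNNGAA, a STAT motif in 7.02% of promoters, were found once, 99 bases before Ccl17. The letters GAAANNGAA, an interferon response motif in 7.13%, were found once, 39 bases before Ccl3 on the reverse strand, and TGANTCA, an AP-1 motif in 6.75%, once, 77 bases before 1 of the 3 listed starts of Ccl27a. Both strands were searched throughout, no 2 matches overlapped, and the matches describe the letters only.

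Among Ccl3, Ccl4 and Ccl5, Ccl5 showed the clearest separation. It had 0.280 and 0.0797 CPM in the controls, against 0.0348, 0.0986 and 0 after early, 0.358, 0.431 and 0.157 after late and 7.38, 6.47 and 7.51 after full depletion, from 172 to 243 reads per ΔTreg library and at most 12 in any other. The 3 ΔTreg libraries differed little, with 7.12 ± 0.565 CPM (SD, n = 3). Ccl5 rose by 5.23 ± 0.419 over control (37.5-fold, adjusted p = 1.39e-05), by 4.51 ± 0.319 over ΔLTreg (adjusted p = 7.04e-06) and by 7.08 ± 0.435 over ΔETreg (adjusted p = 1.5e-06), where ΔETreg held 4 reads in all.

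Ccl4 and Ccl3, products of activated macrophages and lymphocytes, were near the limit of these libraries outside ΔTreg skin. Ccl4 had 0 and 1 reads in the controls, against 1, 3 and 0 after early, 4, 8 and 1 after late and 27, 44 and 25 after full depletion. The ΔTreg reads stood apart from all others, and the test called the difference to control (adjusted p = 0.00168) and to ΔLTreg (2.86 ± 0.535, adjusted p = 0.00383). Because control held 1 read, its ratio to control is better read as 57.7 with a 95% exact interval of 10.1 to 2300, which covers counting error only.

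Ccl3 had 8 and 0 reads in the controls, against 2, 5 and 5 after early, 12, 6 and 0 after late and 24, 31 and 17 after full depletion. It was the one member without a call against control, at 2.43 ± 0.881 (adjusted p = 0.074), and against ΔLTreg, at 2.02 ± 0.702 (adjusted p = 0.0746). Against control it passed in 3 of 17 other settings, without a filter (adjusted p = 0.0014), without control replicate 1 (0.0392) and without ΔLTreg replicate 3 (0.0253), which lay outside this comparison but shares its spread. Against ΔLTreg it passed in 2 of 17, without a filter (adjusted p = 0.000904) and with 1 surrogate variable (0.0476). Against ΔETreg it passed narrowly, at 2.45 ± 0.762 (adjusted p = 0.0389), and no longer did with the surrogate variable (0.0658), without any 1 of the ΔETreg replicates (0.131, 0.0997 and 0.0725) or without ΔTreg replicate 1 (0.106) or 2 (0.105). Control and ΔLTreg each held a library with none of its reads beside one with 8 or 12, so that these estimates were the least precise of the 10 outside Ccl4 and Ccl17.

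The CCR4 ligands differed in spread. Ccl22, made largely by dendritic cells and macrophages, had 2.14 and 1.95 CPM in the controls, against 2.65, 2.53 and 1.76 after early, 2.62, 2.78 and 2.91 after late and 15, 10.6 and 12.1 after full depletion. It was tightly held within each group and rose by 2.61 ± 0.201 over control (6.11-fold, adjusted p = 1.15e-05) and 2.17 ± 0.165 over ΔLTreg (adjusted p = 1.1e-05). Ccl17, a dendritic cell chemokine, had 0.175 and 0 CPM in the controls, against 0.139, 0.0329 and 0.0428 after early, 0.209, 0.157 and 0.0939 after late and 3.77, 1.01 and 0.958 after full depletion. ΔTreg replicate 1 held 88 reads of it and the other libraries of that group 34 and 31. Its rise was 4.25 ± 0.941 over control (adjusted p = 0.00841) and 3.54 ± 0.713 over ΔLTreg (adjusted p = 0.00593). Without control replicate 2, which held none of its reads, the call over control was lost (3.35, adjusted p = 0.0787).

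Ccl27a, the keratinocyte chemokine, changed least and was the best measured. It had 24.8 and 21.8 CPM in the controls, against 21.2, 21.8 and 20.5 after early, 33.2, 24.7 and 26.8 after late and 47.3, 42.0 and 44.2 after full depletion. The ΔTreg libraries lay above all others, by 0.93 ± 0.116 over control (1.91-fold, adjusted p = 0.000247), 0.65 ± 0.1 over ΔLTreg (1.57-fold, adjusted p = 0.00112) and 1.07 ± 0.102 over ΔETreg (2.1-fold, adjusted p = 2.8e-05). The summed keratinocyte markers were 17200 to 17600 CPM in ΔTreg and 16800 to 17200 in control skin. Of the 8 keratinocyte markers 1 rose, Krt14 at 0.40 ± 0.103 (adjusted p = 0.018), and 2, Krt1 and Krt10, fell. Across all genes tested, 12.1% were called higher and 9.39% lower.

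**Figure D2:**
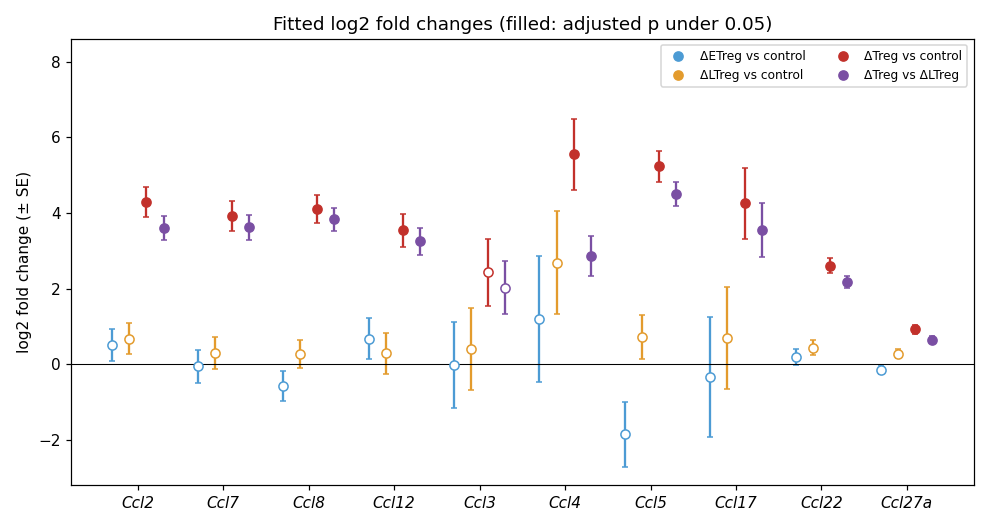
Fitted log2 fold change (vertical axis, ± SE) of each CC chemokine in 4 comparisons, filled where the adjusted p was under 0.05 and open where it was not. Filled points occur in the ΔTreg comparisons alone, with Ccl3 open in both and Ccl27a lowest at 0.93 and 0.65.

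The shorter depletions were compared with control to ask whether either window was enough. In ΔETreg skin none of the 10 was called by edgeR, none had an unadjusted p under 0.05 and none was called by DESeq2, where 0.00544% of all genes were called higher by edgeR, that is 1 gene. Of the estimates, 4 were above 0, the median was -0.03, and none of the 10 had every ΔETreg library above both controls, which 9.35% of all genes had. In ΔLTreg skin none was called by either tool, and 1, Ccl27a, had an unadjusted p under 0.05, where 1.86% of all genes were called higher by edgeR. All 10 estimates were above 0, with a median of 0.42 against 0 over all genes. Ccl22 alone had every ΔLTreg library above both controls, as did 15% of all genes, at 0.44 ± 0.207 (adjusted p = 0.269). The estimate for Ccl27a was 0.28 ± 0.114 (adjusted p = 0.198) and that for Ccl2 0.68 ± 0.416 (adjusted p = 0.405).

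A direct comparison of the 2 shorter depletions called Ccl27a alone, higher in ΔLTreg by 0.42 ± 0.102 (1.33-fold, adjusted p = 0.0374), where 3.12% of all genes were called higher. The call was lost in 10 of 18 other settings, the lowest estimate being 0.28 without ΔLTreg replicate 1 (adjusted p = 0.0651). Ccl27a and Ccl5 had every ΔLTreg library above every ΔETreg library, as did 13.7% of all genes, and Ccl5 differed by 2.57 ± 0.69 (adjusted p = 0.0516). These groups were harvested at different ages, so that depletion window and age cannot be told apart.

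In 3 of the 4 groups, 1 library stood at one end for most of the chemokines, and in ΔETreg none did for more than 5 of the 10. ΔLTreg replicate 3 was the lowest of its group for 8 of the 10 genes, all but Ccl22 and Ccl27a. It was also lowest for the monocyte and macrophage markers, at a summed 277 CPM against 346 and 454, and highest for skeletal muscle markers, at 4040 CPM against 3150 and 1290. Without it, the ΔLTreg estimates over control ran from 0.32 for Ccl27a to 3.19 for Ccl4 and none passed the test. Control replicate 1 was above replicate 2 for 9 of the 10, all but Ccl4, and differed from it in the inflammatory monocyte marker Ly6c2, at 2.49 against 0.12 CPM, and in Ccr2, at 11.1 against 3.23 CPM. ΔTreg replicate 1 was the highest of its group for 8 of the 10, and held the highest summed monocyte and macrophage level, at 978 CPM against 764 and 920. The part of these markers in the chemokine values was not tested.

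Levels of different genes were compared per kilobase of exon. In control skin Ccl27a came first, at 9.80 ± 0.916 CPM per kb (SD, n = 2), followed by Ccl8 at 7.76 ± 1.05, and both stood clear of the rest. Ccl7 at 1.96 and Ccl2 at 1.51 overlapped, as did Ccl22 at 0.879 and Ccl12 at 0.609. Ccl5, Ccl3, Ccl17 and Ccl4 were all under 0.2 CPM per kb and overlapped from each to the next. In ΔTreg skin the order changed. Ccl8 led at 135 ± 33.3 CPM per kb (SD, n = 3), clear of Ccl7 at 30.2 ± 10.2 and Ccl2 at 29.9 ± 8.84, which overlapped. Ccl27a followed at 18.7 ± 1.14, then Ccl5 at 7.42, Ccl12 at 7.37, Ccl22 at 5.40, Ccl17 at 3.72, Ccl4 at 1.63 and Ccl3 at 1.08, each overlapping with the next from Ccl5 on. Exon length was the union over annotated isoforms, 2377 bases for Ccl27a and 511 for Ccl8, which lowers the level of a gene that uses its short isoforms.

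Of the summed length-scaled level, Ccl27a held 40.2% to 45.2% in control and 6.57% to 9.22% in ΔTreg libraries, while Ccl8 held 32.9% to 34.6% and 52.6% to 60.1%. Ccl7 went from 8.34% to 8.62% of the sum in control to 10.5% to 13.9% in ΔTreg, and Ccl5 from 0.41% to 1.13% to 2.54% to 3.51%. The sum itself was 25.9 and 20.3 CPM per kb in control and 303, 192 and 226 in ΔTreg skin.

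**Figure D3:**
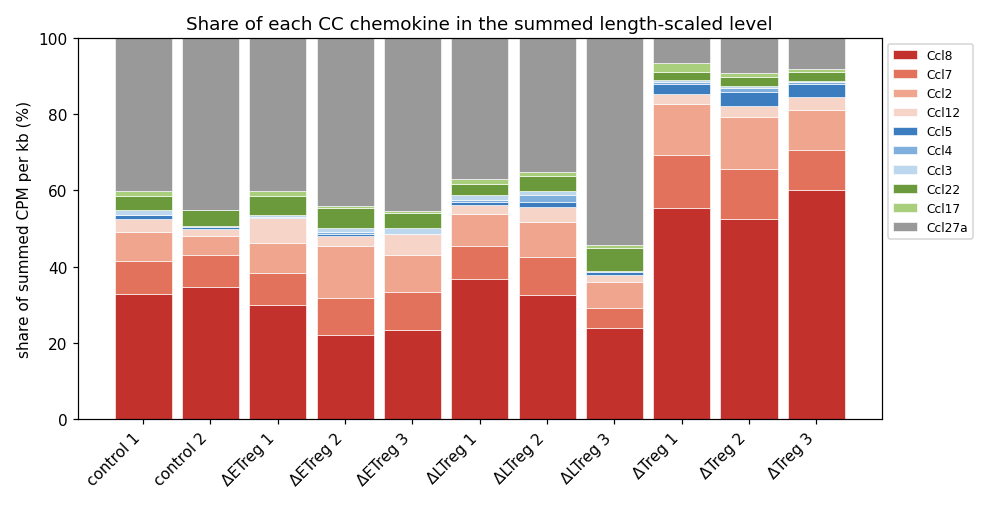
Share of each CC chemokine (stacked, in % of the summed CPM per kb) in each of the 11 libraries. Ccl27a fills 35.2% to 54.2% of the bar in every library outside ΔTreg and under 10% in the ΔTreg libraries, where Ccl8 takes over 50%.

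Of 14 receptors and decoys, 12 could be tested. In ΔTreg against control 7 rose, where 12.1% of all genes did, with none lower and a median log2 fold change of 1.73. Of these, Ccr7 passed the expression filter only through its ΔTreg libraries, and of the other 11 genes 6 rose (median 1.59). Differences of these and the following genes are on the log2 scale, ± SE. Ccr1, a receptor of CCL3, CCL5 and CCL7, rose by 2.26 ± 0.551 (adjusted p = 0.0139), and Ccr8, the receptor of mouse CCL8 and of CCL1, by 2.31 ± 0.456 (adjusted p = 0.00436). Ccr7, which guides cells to lymph nodes, rose by 3.57 ± 0.438 (adjusted p = 0.000232).

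Ccr2, the receptor of CCL2, CCL7 and CCL12, had 11.1 and 3.23 CPM in the controls, against 2.33, 3.42 and 2.31 after early, 7.30, 12.0 and 1.72 after late and 19.5, 10.1 and 13.3 after full depletion. ΔTreg overlapped with control and ΔLTreg, and the difference of 0.98 ± 0.635 to control was not called (adjusted p = 0.31). Every ΔTreg library lay above every ΔETreg library, and that difference of 2.39 ± 0.609 was called (adjusted p = 0.0153, edgeR). Ccr4, the receptor of CCL17 and CCL22, had 4.73 and 3.74 CPM in control and 4.29, 5.05 and 4.39 in ΔTreg skin, with a difference of 0.11 ± 0.209 (adjusted p = 0.751). Ccr10, the receptor of CCL27, differed by 0.27 ± 0.283 (adjusted p = 0.549). Ligands of each of these 3 receptors were called in ΔTreg against control, but the difference between ligand and receptor was not tested. Other calls included the decoy and presenting receptors Ackr1, at 1.59 ± 0.245 (adjusted p = 0.00101), Ackr2, at 1.88 ± 0.259 (adjusted p = 0.000484), and Ccrl2, at 2.79 ± 0.224 (adjusted p = 1.41e-05). Ackr1 and Ccrl2 were also the only receptors called in ΔLTreg, both at 1.04 (adjusted p = 0.0393 and 0.0392), where 1.86% of all genes were called higher. The count of receptors called there ranged from 0 to 3 over the other settings.

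Of the other CC chemokines, 7 of 10 tested were higher in ΔTreg than in control (median 1.91), where 12.1% of all genes were, and none was lower. Ccl1, Ccl19 and Ccl27b passed the filter only through ΔTreg, and of the other 7 genes 5 rose (median 2.11). Ccl24, an eotaxin that acts on CCR3, had 0.665 and 1.23 CPM in control and 38.0, 14.5 and 19.0 in ΔTreg skin, a rise of 4.65 ± 0.46 (adjusted p = 5.54e-05). Ccl11, the other eotaxin measured, rose by 2.5 ± 0.186 (adjusted p = 9.82e-06), Ccl6 by 3.03 ± 0.367 (adjusted p = 0.000212), Ccl9 by 2.11 ± 0.438 (adjusted p = 0.00593) and Ccl1, a CCR8 ligand, by 4.58 ± 0.631 (adjusted p = 0.000477). Ccl20, the CCR6 ligand made by epithelium, was called in ΔLTreg too, at 1.70 ± 0.361 over control (adjusted p = 0.0261) from 0.876 and 0.637 CPM in control to 2.74, 2.55 and 2.16 in ΔLTreg. The call was lost when control replicate 1 or control replicate 2 was left out. Its ΔTreg libraries had 2.32, 2.64 and 1.30 CPM, at -0.26 ± 0.274 against ΔLTreg (adjusted p = 0.58). The homeostatic Ccl25 and Ccl28, at 0.33 and -1.31, were not called.

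Of 12 cytokines listed as possible regulators of CC chemokines, 9 could be tested, with a median of 1.72 in ΔTreg against control. In that comparison 7 were called higher, where 12.1% of all genes were. Of the cytokines tested, Ifng, Il6, Il10 and Il13 passed the filter only through ΔTreg, which favours finding a rise there. Of the other 5 genes 3 rose, with a median of 0.64. Il13, a type 2 cytokine that induces CCL17, CCL22 and CCL24 in macrophages, had 0.280 and 0.159 CPM in control, 0.298, 0.314 and 0.0939 after late and 6.52, 5.08 and 4.98 after full depletion, a rise of 4.6 ± 0.379 over control (adjusted p = 1.58e-05). Ifng, the interferon-gamma gene, which drives CCL5 and CCL2, had 0.0298, 0.157 and 0 CPM after late and 2.32, 2.43 and 1.76 after full depletion. Its rise was 5.18 ± 0.633 over ΔLTreg (adjusted p = 0.000249) and 5.18 ± 0.766 over control (adjusted p = 0.000769). Tgfb1 rose by 0.64 ± 0.0743 (adjusted p = 0.000166) and Tnf by 0.81 ± 0.254 (adjusted p = 0.0427) over control. Il4 and Tslp were not called, at -0.04 and 0.51. None of the 9 was called in ΔETreg or ΔLTreg against control.

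Markers of leukocytes moved with the chemokines in ΔTreg skin. The summed level of 12 monocyte and macrophage markers was 764 to 978 CPM in ΔTreg and 390 to 455 in control, with 7 of 12 higher at a median of 1.54. Mrc1 rose by 2.04 ± 0.318 (adjusted p = 0.00108) and C1qa by 2.21 ± 0.394 (adjusted p = 0.00238), whereas Csf1r, at 0.72, and Lyz2, at 0.76, were not called. The 11 T and NK cell markers summed to 83.8 to 94.8 CPM in ΔTreg against 11.2 to 13.8 in control. All were called higher, but 6 of them (Cd8a, Cd8b1, Trac, Gzmb, Ncr1 and Klrb1c) passed the filter only through ΔTreg, which favours finding a rise there. The other 5 rose at a median of 2.83. Cd8a had 0 and 0.0797 CPM in control and 10.2, 7.01 and 9.15 in ΔTreg skin. All 5 neutrophil markers that could be tested rose as well, 1 of which (Retnlg) passed only through ΔTreg, with sums of 32.8 to 41.0 against 13.4 to 14.1 CPM. The sums were mostly S100a8, at a mean of 15.3 against 9.49 CPM, and S100a9, at 9.98 against 1.91, while the defining Ly6g and Mpo were too low to test. The cells that carried these 2 transcripts were not identified. Of 10 dendritic and Langerhans cell markers 4 rose, Ccr7 among them, and the Langerhans cell gene Cd207 fell by 1.52 ± 0.189 (adjusted p = 0.000251). Their sums of 397 to 428 against 249 to 250 CPM were mostly Epcam, which epithelium also expresses, at a mean of 311 against 198 CPM, and H2-Aa, at 80.1 against 36.1, while Flt3, Xcr1, Clec9a, Zbtb46 and Cd209a were not called. Of 6 Treg-associated genes 4 rose, of which Icos passed only through ΔTreg, with sums of 33.9 to 39.8 against 15.9 to 17.8 CPM. Foxp3, at -0.30, and Ctla4, at 0.56, were not called. The sums were mostly Tnfrsf18, at a mean of 18.5 against 9.58 CPM, and Ikzf2, at 11.1 against 5.76. Whether Tregs carried this RNA was not tested. Fibroblast markers had 3 of 6 lower, with sums of 6710 to 7520 against 13100 to 15000 CPM. Of the other lists, 1 of 6 mast cell markers, 2 of 5 endothelial and 1 of 3 erythroid markers fell, 2 endothelial markers and 1 of 5 muscle markers rose, and none of 5 adipocyte markers was called. Across all genes, 12.1% were called higher and 9.39% lower. The endothelial list exceeded both shares, but its calls went both ways. None of these few calls is read as a result about those cell types. The part of cell numbers in the chemokine values was not tested.

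**Figure D4:**
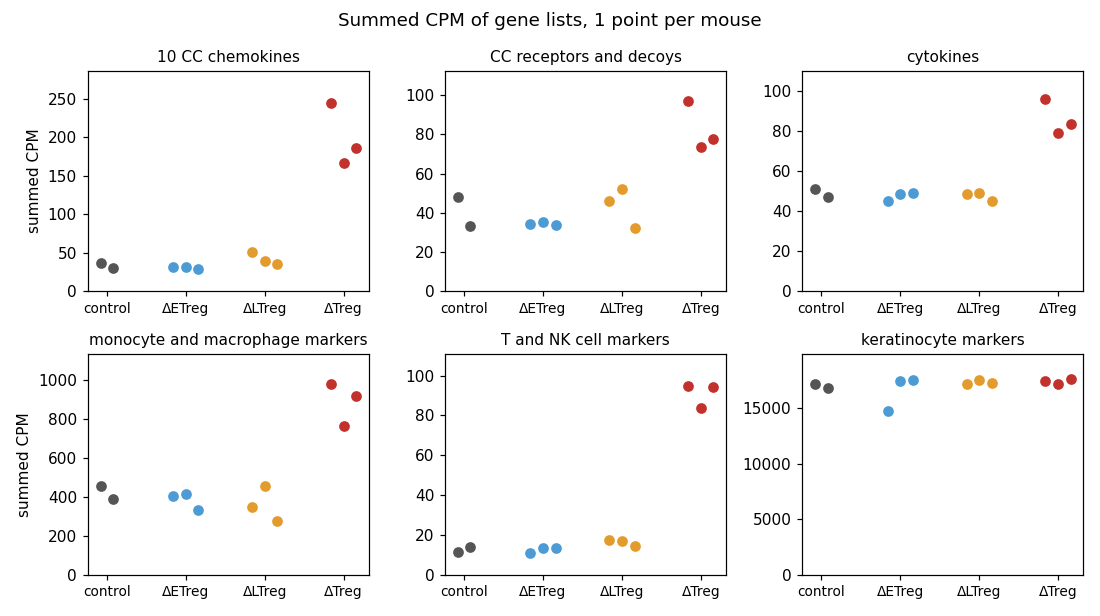
Summed CPM (vertical axis, from 0) of 6 gene lists in each library, 1 point per mouse, for control (n = 2), ΔETreg, ΔLTreg and ΔTreg (n = 3 each). The chemokine, receptor, cytokine, macrophage and T cell sums are highest in the ΔTreg libraries, with chemokines at 167 to 245 CPM against at most 50.6 elsewhere, while the keratinocyte sum stays between 14700 and 17600 CPM.

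The genes outside the family whose log2 CPM ran most like a chemokine's over the 11 libraries were sought among 13891 genes with at least 50 reads on average. For Ccl2 these were Parp8 (Pearson's r = 0.996), Stat3 (0.996) and Elf4 (0.994), and for Ccl5 Bin2 (0.995), Tspo (0.988) and Cd52 (0.988). For Ccl22 they were Tnfaip2 (0.992), Rasal3 (0.991) and Malt1 (0.990), and for Ccl27a Tmem71 (0.982), Slc7a6 (0.982) and Gsap (0.981). All these points share 1 contrast, ΔTreg against the other libraries, so the coefficients describe that step and carry no test.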

How the data were processed

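RNA from 11 whole-skin biopsies, 1 per mouse, was sequenced as bulk libraries, and the labels put each in its group. The authors used Trimmomatic 0.36 for trimming and STAR 2.5.2b for alignment to GRCm38, and counted unique exon reads per gene with featureCounts (Subread 1.5.2), per their methods and the submitters' processing notes. The strand setting, the annotation release and whether RNA was selected by poly(A) or by ribosomal depletion are not given in the sources used here. The deposited values were raw counts per gene, without normalization. Of the 49315 gene IDs, 48970 were in GENCODE M21, which gave positions and exon lengths, and 174 rows without a gene name held 0.0062% of counts and entered no statement.

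Counts were filtered (filterByExpr), scaled by TMM and fitted in edgeR 4.0.16 (R 4.3.3) with 1 mean per group over all 11 libraries, and the quasi-likelihood test was adjusted over 18375 genes at 0.05. The design had no covariate. CPM used TMM-scaled library sizes, and the SE was the log2 fold change over the square root of F. The scripts were tested on simulated data. All 6 contrasts between groups were tested, and the 3 against control share the same 2 control libraries. Counting intervals cover counting error only. Replicates were separate libraries that differed by more than sampling noise, with a median chi-square over genes of 1.02 to 3.52 per pair against 0.455 for sampling noise alone.

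The 10 genes and all gene lists were chosen with earlier results of these data known. Named genes were the 10 chemokines, any gene of the receptor and other CC chemokine lists, of each further list the 2 genes with the smallest p and the 2 with the highest mean CPM for ΔTreg against control or any set beside a chemokine, and the 3 genes most like Ccl2, Ccl5, Ccl22 and Ccl27a. Near-identical copies and overlapping neighbours of Ccl27a, and some genes of the further lists that were not called, were named as a limit. Of the receptor list, 1 gene entered its counts and sums but is not reported here on its own. Alternatives were DESeq2 1.42.0, its size factors, plain library size, 2 other filters, 1 surrogate variable (sva 3.50.0), fits of 2 groups and each library left out.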

Additional observations from a re-analysis of the deposited data

Results flagged for a closer look

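One value was singled out because 2 groups under the same toxin differed. Ccl27a was 0.42 ± 0.102 higher on the log2 scale in ΔLTreg than in ΔETreg skin (adjusted p = 0.0374, edgeR's quasi-likelihood test), a direct test of the difference between the 2 groups. All 3 ΔLTreg libraries, at 33.2, 24.7 and 26.8 CPM, lay above the 3 ΔETreg libraries, at 21.2, 21.8 and 20.5 CPM. The groups also differed in age at harvest, and toxin window and age cannot be told apart. The call was lost in 10 of 18 other settings, and without ΔLTreg replicate 1, the library at 33.2 CPM, the difference fell to 0.28 (adjusted p = 0.0651). With 2 or 3 libraries a group, no formal test for outlying libraries was run.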

How the results depend on the processing

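Against control and against ΔLTreg, 9 chemokines were called in ΔTreg skin, and against ΔETreg 10, and each of these counts became 5 when 10 reads were required in every library, since 5 were then tested. Leaving out 1 library gave 8 to 10 calls against control, 9 to 9 against ΔLTreg and 9 to 10 against ΔETreg. Both shorter depletions kept 0 calls against control under every alternative. Between ΔLTreg and ΔETreg the 1 call became 2 with DESeq2, 0 with plain library size, with 1 surrogate variable or with the 2 groups alone, and 3 without a filter, and ran from 0 to 3 over libraries left out, with 3 without ΔLTreg replicate 3, 2 without either control, and 0 without any ΔETreg or ΔTreg replicate or ΔLTreg replicate 1. The cause was not tested.

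Of 1039 values of single chemokines under alternatives, 993 kept direction and side of the threshold, 12 newly passed, 17 no longer passed and 17 changed sign, none of the last past the threshold. For ΔETreg against control these were Ccl3 at 0.05 with DESeq2, 0.02 with plain library size and 0.27 with the surrogate variable, and Ccl7 at 0.07 with the latter. Over libraries left out, this comparison gave -0.92 to 5.11 for Ccl3, -0.23 to 0.17 for Ccl7 and -1.22 to 4.15 for Ccl17, lowest without control replicate 2 and highest without control replicate 1. ΔLTreg against control gave -0.50 to 5.54 for Ccl3, -0.12 to 0.6 for Ccl8, -0.15 to 1.02 for Ccl12 and -0.18 to 5.19 for Ccl17, and Ccl3, Ccl12 and Ccl17 were below 0 without control replicate 2, Ccl3 (-0.47) and Ccl8 without ΔLTreg replicate 1. Values above 4 are fitted against a control with none of the gene's reads and are no bound. ΔLTreg against ΔETreg gave -0.09 to 0.45 for Ccl2 and -0.45 to 1.03 for Ccl3, below 0 without ΔLTreg replicate 1, and Ccl2 was at -0.03 with the surrogate variable.

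Over all genes, the 1 call of ΔETreg against control became 8 with DESeq2, 54 without a filter, and 0 with the stricter filter, the surrogate variable or the 2 groups alone, and ran from 0 to 7 over libraries left out. The 836 of ΔLTreg against control became 1790 without a filter, 154 with 2 groups, and 292 and 377 without control replicates 1 and 2. The 1173 of ΔLTreg against ΔETreg became 2173 without a filter, 540 with 2 groups, and 573, 353 and 619 without ΔETreg replicates 1, 2 and 3. The 3946 of ΔTreg against control became 2026 without control replicate 2, and the 3096 against ΔLTreg 1987 without ΔTreg replicate 1.

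No paired analysis was possible because the labels give no replicate numbers that groups share. Depth limits Ccl3, Ccl4, Ccl5 and Ccl17, which held at most 12 reads in any library outside ΔTreg. A left-out control leaves 1 control library, assumed to vary like the other groups.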
